A study of Mus musculus with 6 samples.

Results

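Macrophages and monocytes are a minor cell population of the heart wall, and 33 genes that mark them were followed in left ventricle of sickle and control mice. The genes were listed by symbol, and each was read from the array row that the platform annotation assigns to that symbol alone, and by its brightest such row (by mean over the 6 arrays) where it had more than 1. This gave values for 32 of the 33 genes, out of 21506 genes tested; Spp1, which encodes osteopontin, was not analysed here. The genes were ordered by role into markers of resident heart macrophages, markers of recruited monocytes and injury macrophages, genes shared by most macrophages, Fc receptors with their adaptors, phagocytic receptors, and broad leukocyte genes.

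The study compared 3 sickle mice with 3 control mice, all male, 10 to 14 weeks old and on a mixed B6;129 background, with total RNA of 1 left ventricle on each Affymetrix Mouse Gene 2.0 ST array. Sickle mice were homozygous for Hbbtm2(HBG1,HBB*)Tow, an allele that puts human gamma-globin and sickle beta-globin genes at the mouse beta-globin locus. Control mice carried Hbbtm3(HBG1,HBB)Tow, the same arrangement with a non-sickling human beta-globin gene. Both groups carried Hbatm1(HBA)Tow, the human alpha-globin allele, so the controls were engineered animals too and not wild type. The sources used here do not say whether the arrayed mice had gone through any other heart procedure.

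Heart macrophages come in part from cells that settle in the tissue early in life and renew there, and in part from blood monocytes that enter during injury. The first kind is recognised in mouse heart by scavenger and uptake receptors such as Lyve1, Timd4, Folr2 and Cd163. Monocyte-derived cells that clear debris switch on Trem2, Gpnmb, Spp1 and Lgals3. In sickle disease, macrophages also take up damaged red cells and free haemoglobin.

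Values are on the log2 scale of the deposited table, so a difference of 1 is a doubling. Array medians differed by at most 0.04. Markers of cardiomyocytes were bright in every array: Tnnt2, cardiac troponin T, averaged 13.56 in sickle and 13.53 in control. Sickle replicate 3 stood apart from the other arrays, with a score of 43.3 on the first principal component (43.9% of the variance) against -15.1 to -2.31 for the other 5. Control replicate 3 held atrial transcripts: Sln had 8.08 there, against 3.10 to 3.36 elsewhere. Results are therefore given with and without sickle replicate 3.

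None of the 32 macrophage and monocyte genes passed the test between sickle and control over the 6 arrays (limma, adjusted over all genes, 0 of 32; over all genes 0.181% passed). At an unadjusted p under 0.05, 5 of the 32 were higher in sickle, against 4.3% of all genes, and 0 were lower, against 4.38%. The direction was mostly upward: 30 of 32 had a positive difference, against 48.4% of all genes. The median difference was 0.39 over the 32 genes, against -0.01 over all genes.

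That median rested on 1 array. Relative to the control mean, the median of the 32 genes was 0.01, 0.12 and 1.24 in sickle replicates 1, 2 and 3, and lay between -0.12 and 0.07 in the control arrays. Without sickle replicate 3, the median difference was 0.09, 21 of the 32 genes were above control and 11 below, against 50.2% of all genes above. Sickle replicate 3 was the highest of the 6 arrays for 29 of the 32 genes, which was so for 23.9% of all genes. In 16 of the 32 it was more than 2-fold above the mean of sickle replicates 1 and 2, against 1.58% of all genes. In tissue RNA, more cells of a type and more RNA per cell cannot be told apart.

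**Figure D1:**
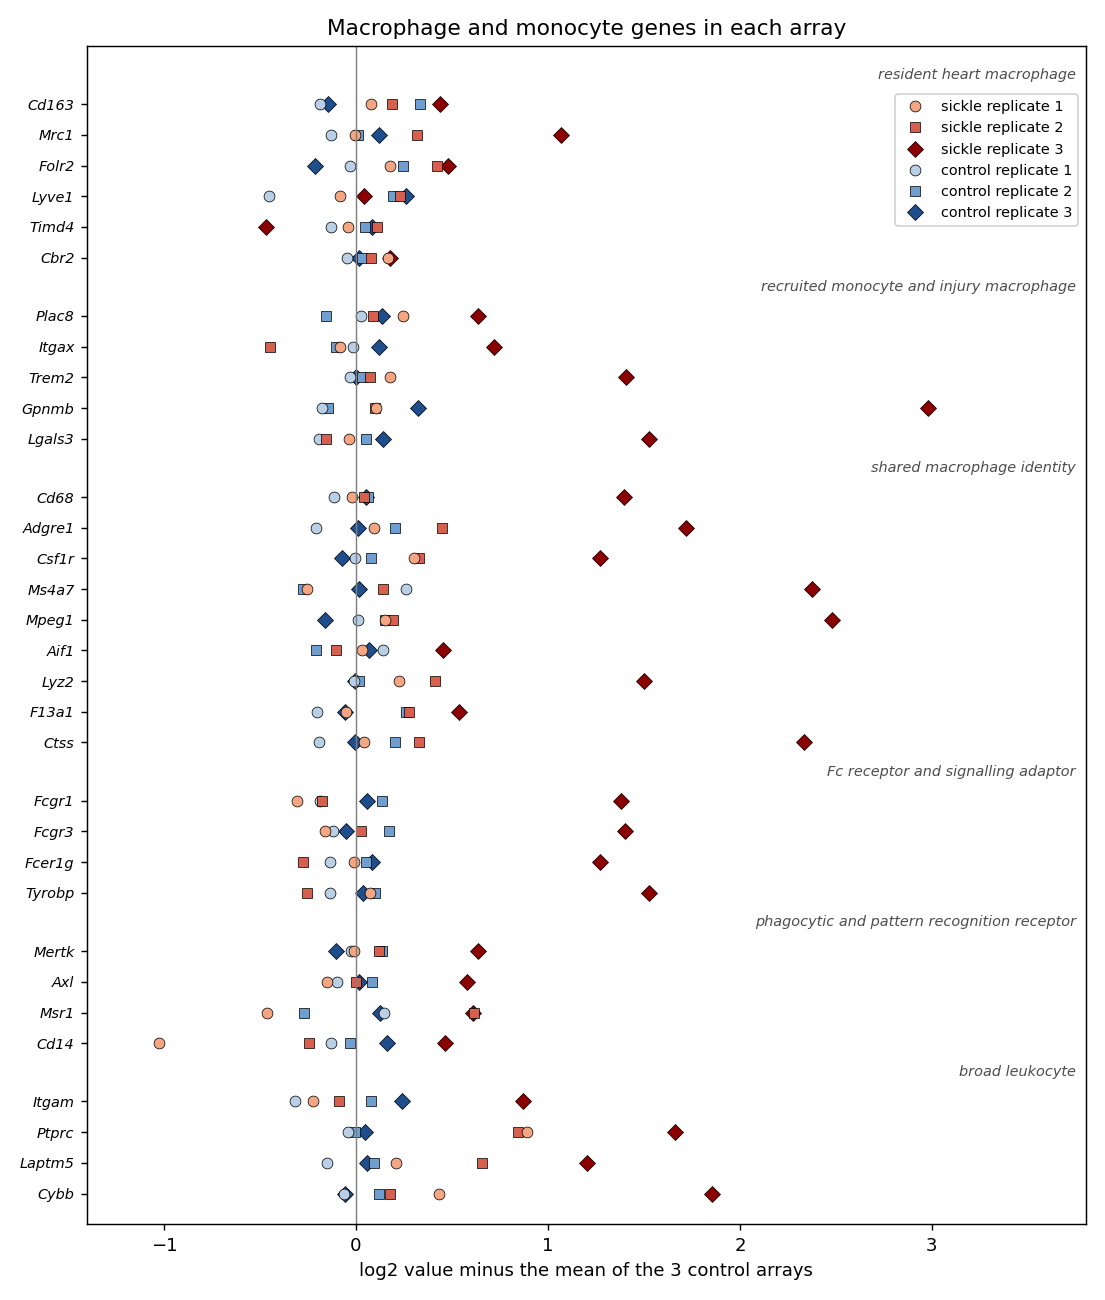
Each row is 1 of the 32 genes, grouped by role, and each point is 1 array, plotted as its log2 value minus the mean of the 3 control arrays. The sickle replicate 3 points lie far to the right for Gpnmb, Mpeg1, Ms4a7 and Ctss and among the other arrays for Lyve1 and Cbr2, while for Ptprc all 3 sickle arrays lie to the right of the controls.

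Promoters of a few of these genes are shown, all of them holding a marked motif. The genes were high together in sickle replicate 3 (Trem2, Fcgr1, Cd68 and Cybb), were higher in all 3 sickle arrays (Laptm5, also Trem2 and Cybb), or serve as a resident marker (Mrc1). Each line gives the 150 bases before the gene's start, 5′ to 3′ on the gene's strand, from RefSeq's GRCm38.p6. Capitals mark GAGGAAG or its complement CTTCCTC, the core of sites for PU.1, the master regulator of macrophages encoded by Spi1, and TGANTCA, which includes the AP-1 site. The TGANTCA stretches read TGAGTCA, an AP-1 site, in Cd68, but TGAATCA in Trem2 and Cybb. The marked motifs do not overlap. The positions are chr17:48346251-48346400 (plus strand) for Trem2, chr3:96293970-96294119 (minus) for Fcgr1, chr11:69666171-69666320 (minus) for Cd68, chrX:9469325-9469474 (minus) for Cybb, chr4:130913166-130913315 (plus) for Laptm5 and chr2:14229264-14229413 (plus) for Mrc1.
Trem2: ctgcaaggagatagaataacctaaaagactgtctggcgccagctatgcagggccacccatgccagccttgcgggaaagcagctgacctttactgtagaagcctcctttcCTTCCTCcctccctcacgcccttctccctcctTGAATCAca
Fcgr1: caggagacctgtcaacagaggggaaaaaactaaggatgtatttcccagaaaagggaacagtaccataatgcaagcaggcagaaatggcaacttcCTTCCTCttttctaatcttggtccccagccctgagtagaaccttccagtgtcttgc
Cd68: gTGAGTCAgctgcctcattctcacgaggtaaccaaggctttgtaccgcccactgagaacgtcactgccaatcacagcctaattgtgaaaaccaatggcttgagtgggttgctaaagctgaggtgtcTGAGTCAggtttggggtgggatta
Cybb: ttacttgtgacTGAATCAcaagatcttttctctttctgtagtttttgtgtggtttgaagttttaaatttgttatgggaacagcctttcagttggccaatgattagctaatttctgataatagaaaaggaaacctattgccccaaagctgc
Laptm5: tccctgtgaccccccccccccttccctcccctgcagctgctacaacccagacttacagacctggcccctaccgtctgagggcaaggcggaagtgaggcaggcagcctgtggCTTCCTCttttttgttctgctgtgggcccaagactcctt
Mrc1: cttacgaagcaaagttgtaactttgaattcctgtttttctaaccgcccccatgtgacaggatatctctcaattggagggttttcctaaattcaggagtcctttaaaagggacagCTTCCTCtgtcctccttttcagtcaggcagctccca
Of the 33 genes, 27 had a window in the RefSeq promoter table, which runs from 250 bases before to 50 after the start. On either strand, GAGGAAG was found for 11 of the 27 (40.7%), against 15.4% of 27025 genes in the table. TGANTCA, which reads the same on both strands, was found for 7 of 27 (25.9%), against 8.97% of genes. TCACGTG, a site of the MiT/TFE factors that drive lysosomal genes, was found for 0 of 27, against 4.29% of genes. For 10 of the 27, among them Ptprc, Lyz2, Mpeg1 and Fcer1g, the window held none of the 3 motifs. Promoters of these are not shown, although Ptprc, Lyz2 and Mpeg1 were also higher in all 3 sickle arrays. A match is a string of letters and not evidence of binding.

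Ptprc, which encodes CD45, the surface phosphatase carried by all nucleated blood cells, was the most clearly separated of the 32 genes. It had 7.56, 7.51 and 8.33 in sickle replicates 1, 2 and 3, against 6.63, 6.66 and 6.72 in control. Every sickle array was therefore well above every control array, and the difference was 1.13 ± 0.21 (SE; 95% interval 0.64 to 1.62), or 2.19-fold. It did not pass over all 6 arrays (limma adjusted p = 0.191). Without sickle replicate 3, Ptprc was the 1 member past the test, where 0.0976% of all genes passed: the difference was 0.87 ± 0.09, or 1.82-fold, with a limma adjusted p of 0.0378. Across the 15 alternatives run, that was the only one in which it passed, and the adjusted p ranged up to 0.633, reached without control replicate 2. Only 5 of all 21506 genes passed without control replicate 2. In some alternatives, such as the one without variance shared between genes, 0 did. The difference of Ptprc ranged from 0.87 to 1.28 across the 15.

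Of the other broad leukocyte genes, Laptm5 and Cybb were also higher in all 3 sickle arrays, by smaller amounts, and Itgam was not. Laptm5, a lysosomal membrane protein of blood cells, had 5.74, 6.19 and 6.74 in sickle, against 5.39, 5.63 and 5.59 in control, with no overlap (difference 0.69 ± 0.23, adjusted p = 0.498; 0.43 ± 0.16 without sickle replicate 3). Cybb, the catalytic subunit of the phagocyte oxidase, had 7.69, 7.43 and 9.11 in sickle, against 7.19, 7.37 and 7.20 in control. Its lowest sickle array was only just above the highest control array, and the difference was 0.82 ± 0.39 with all arrays and 0.30 ± 0.12 without sickle replicate 3. Itgam, which encodes CD11b, overlapped between the groups, with 6.60, 6.74 and 7.70 in sickle against 6.51, 6.91 and 7.07 in control. Its difference of 0.19 ± 0.29 turned to -0.16 ± 0.17 without sickle replicate 3.

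CD45 and LAPTM5 are also made by lymphocytes, whose markers were higher in the same arrays. The 4 measured B-cell markers had a median of 0.89, 0.44 and 0.69 relative to the control mean in sickle replicates 1, 2 and 3, against -0.07 to 0.07 in control arrays. Their mean level was 5.36 to 5.66 in sickle and 4.75 to 4.91 in control, and Cd79a, of the B-cell receptor, passed the test over 6 arrays (1.12 ± 0.15, limma adjusted p = 0.0484). Without sickle replicate 3 its difference was 1.23 ± 0.14 and did not pass (limma adjusted p = 0.060). All 7 T and NK cell markers had a positive difference (median 0.26), of which 0 passed in limma. At an unadjusted p under 0.05, 4 of the 7 were higher, against 4.3% of all genes, and 2 of the 7 without sickle replicate 3, against 4.83%. What part lymphocytes have in the Ptprc difference was not tested.

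**Figure D2:**
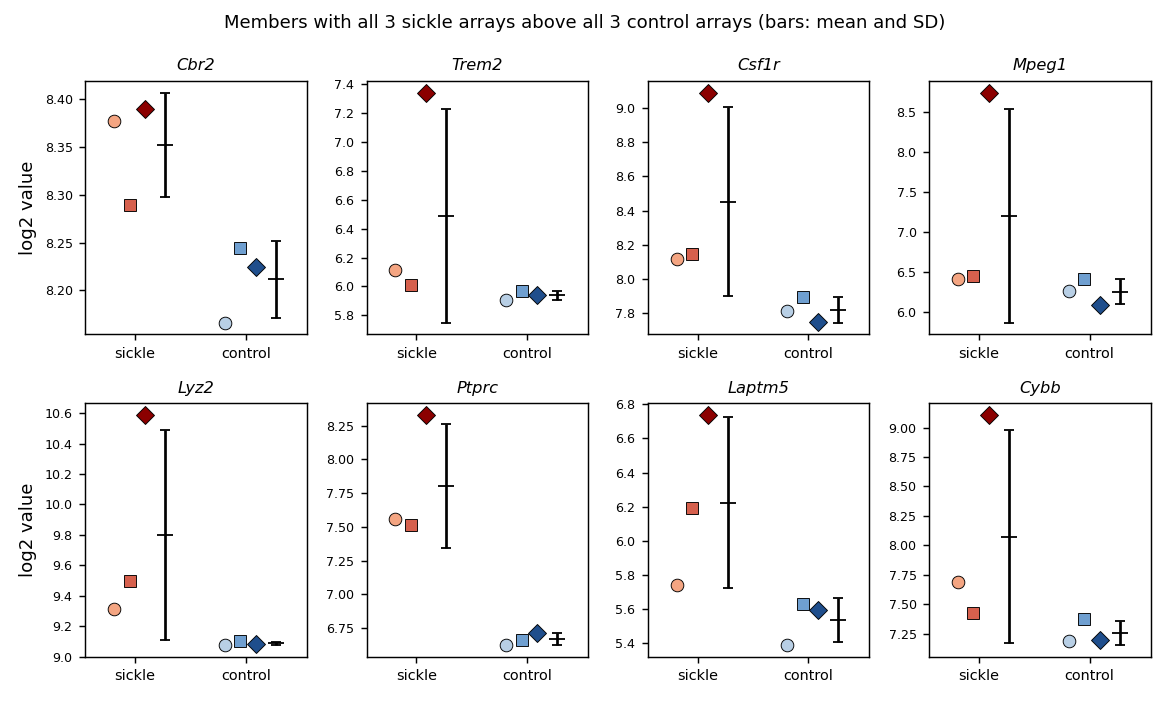
The 8 members in which every sickle array was above every control array, with each array's log2 value as a point and the mean and SD of 3 arrays as a bar; the axes do not start at 0 and differ between panels. For Ptprc all 3 sickle points are clear of the controls, whereas for Trem2, Mpeg1 and Cybb sickle replicates 1 and 2 sit close to them.

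In all, 8 of the 32 genes had all sickle arrays above all control arrays, against 7.61% of all genes, and 0 had the opposite order, against 8.36%. Besides Ptprc, Laptm5 and Cybb they were Csf1r, Lyz2, Mpeg1, Trem2 and Cbr2. Leaving out a sickle array cannot take a gene out of this order, so these 8 had to keep it without sickle replicate 3. No further member joined them there (13.5% of all genes had that order), and Cd14 alone had the opposite order (13.4% of all genes).

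Among the genes shared by most macrophages, Csf1r and Lyz2 were higher in each sickle array. Csf1r, the receptor for the survival factors CSF1 and IL-34, had 8.12, 8.15 and 9.09 in sickle, against 7.81, 7.90 and 7.75 in control (difference 0.63 ± 0.25, adjusted p = 0.558). Without sickle replicate 3 its difference was 0.31 ± 0.09 (95% interval 0.09 to 0.54, limma adjusted p = 0.415). Lyz2, the macrophage lysozyme, had 9.31, 9.50 and 10.59 in sickle, against 9.08, 9.10 and 9.08 in control, where the 3 arrays were nearly equal. Its difference was 0.71 ± 0.30 with all arrays and 0.32 ± 0.10 without sickle replicate 3, neither past the adjustment. Adgre1, which encodes F4/80, had 6.76, 7.12 and 8.39 in sickle, against 6.46, 6.87 and 6.68 in control, so sickle replicate 1 lay within the control range.

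The shared identity genes Mpeg1, Ctss, Ms4a7 and Cd68 were far above control in sickle replicate 3 alone. For Mpeg1, sickle replicates 1 and 2 were also above every control array, but by little. Mpeg1, a pore-forming protein that attacks engulfed bacteria, had 6.41, 6.45 and 8.74 in sickle, against 6.27, 6.41 and 6.09 in control. Ctss, the antigen-processing protease cathepsin S, had 7.77, 8.05 and 10.06 in sickle, against 7.53, 7.93 and 7.72 in control. Ms4a7, a membrane protein of mature macrophages, had 5.32, 5.71 and 7.94 in sickle, against 5.83, 5.29 and 5.58 in control. Sickle replicate 3 was 4.95-fold, 4.43-fold and 5.39-fold above the mean of sickle replicates 1 and 2 for Mpeg1, Ctss and Ms4a7, while those 2 arrays lay within or close to the control range. Cd68, a lysosomal membrane protein of phagocytes, showed the pattern at a smaller size, with 7.42, 7.48 and 8.84 in sickle against 7.32, 7.51 and 7.49 in control, and its difference was 0.01 ± 0.10 without sickle replicate 3. F13a1, the clotting factor subunit that both monocytes and resident macrophages make, and Aif1, which encodes the actin-binding protein IBA1, had differences of 0.25 ± 0.18 and 0.13 ± 0.17 and overlapped between the groups.

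Markers of recruited monocytes and injury macrophages had a median difference of 0.45 over the 5 measured genes, and 0.10 without sickle replicate 3. Gpnmb, a glycoprotein of the phagosome and lysosome, had 5.15, 5.14 and 8.02 in sickle, against 4.86, 4.90 and 5.37 in control. Its value in sickle replicate 3 was 7.35-fold above the mean of the other sickle arrays, which themselves lay between control replicates 2 and 3. Lgals3, galectin-3, had 6.32, 6.20 and 7.88 in sickle, against 6.16, 6.41 and 6.49 in control, with a difference of 0.45 ± 0.41 that became -0.10 ± 0.12 without sickle replicate 3.

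Trem2, a lipid-sensing receptor, had 6.11, 6.01 and 7.34 in sickle, against 5.91, 5.97 and 5.94 in control. The groups did not overlap, but sickle replicates 1 and 2 exceeded control by little: the difference was 0.12 ± 0.09 without sickle replicate 3 and 0.55 ± 0.32 with it (adjusted p = 0.653). Itgax, which encodes CD11c, had 5.03, 4.66 and 5.83 in sickle, against 5.09, 5.002 and 5.23 in control, so that sickle arrays lay on both sides of control. Plac8, a small protein of blood monocytes and the dimmest of the 32 genes (28.2 percentile), had 4.50, 4.34 and 4.90 in sickle, against 4.28, 4.10 and 4.39 in control.

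Resident heart macrophage markers differed less. Their median difference was 0.19 over 6 genes and 0.13 without sickle replicate 3. In that array 0 of the 6 were more than 2-fold above the group mates, against 1.58% of all genes. Mrc1, the mannose receptor CD206, came closest, with 8.57, 8.90 and 9.64 in sickle against 8.45, 8.59 and 8.70 in control (difference 0.46 ± 0.25, adjusted p = 0.630). Folr2, folate receptor beta, had 7.97, 8.22 and 8.27 in sickle, against 7.76, 8.04 and 7.58 in control, so its difference of 0.36 ± 0.14 (adjusted p = 0.564) did not come from sickle replicate 3. Without that array the difference of Folr2 was 0.30 ± 0.16.

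Cd163, the scavenger receptor for haemoglobin bound to haptoglobin, had 6.97, 7.08 and 7.33 in sickle, against 6.71, 7.23 and 6.75 in control. Control replicate 2 was above both of the lower sickle arrays, and the difference was 0.23 ± 0.17 (95% interval -0.15 to 0.62). Lyve1, a hyaluronan receptor also made by lymphatic vessels, had 8.91, 9.22 and 9.04 in sickle, against 8.54, 9.19 and 9.26 in control. Its difference of 0.06 ± 0.20 had a 95% interval of -0.40 to 0.52, so 3 arrays a group did not exclude a change within those bounds. Lymphatic markers had a median difference of 0.17 over 5 genes (0.05 without sickle replicate 3). In limma 0 of the 5 passed the test, against 0.181% of all genes. At an unadjusted p under 0.05, 1 was higher, against 4.3% of all genes, and 0 were lower, against 4.38%.

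Timd4, a receptor for dying cells, ran against the other markers. It had 5.68, 5.83 and 5.25 in sickle, against 5.59, 5.76 and 5.80 in control, and sickle replicate 3 was the lowest of the 6 arrays. Its difference was -0.13 ± 0.16 with all arrays and 0.04 ± 0.11 without sickle replicate 3. Cbr2, a carbonyl reductase, was nearly level, with 8.38, 8.29 and 8.39 in sickle against 8.17, 8.24 and 8.22 in control. Cbr2 had no overlap between the groups, but its difference was 0.14 ± 0.09 (adjusted p = 0.668).

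Set side by side, these recruited and resident markers parted in 1 array. The recruited median minus the resident median, each relative to the control mean, was 0.07, -0.14 and 1.10 in sickle replicates 1, 2 and 3. It was 0.10, -0.23 and 0.09 in control replicates 1, 2 and 3, so sickle replicates 1 and 2 lay inside the control range. Over the groups, the recruited median difference exceeded the resident one by 0.26, and by -0.02 without sickle replicate 3. The lists are short and were chosen with results known, so the difference between them carries no test. It also depended on the genes listed. In sickle replicate 3, the other resident macrophage genes described below had a median of 0.78 relative to the control mean. The other monocyte and recruited genes had a lower one, 0.42.

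**Figure D3:**
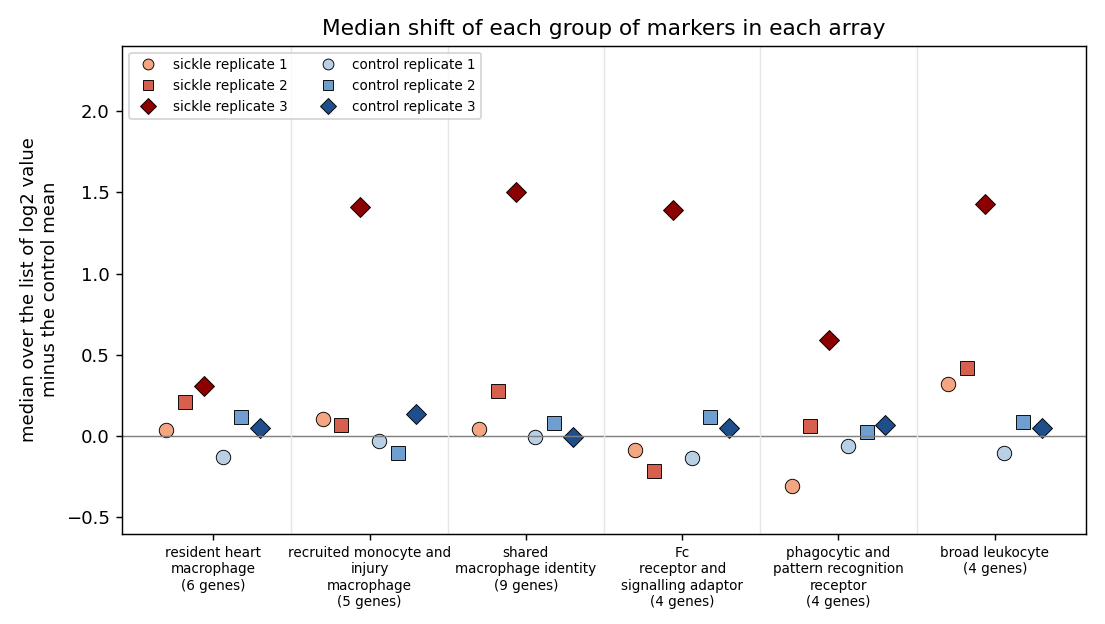
Each point is the median over a group of markers, in 1 array, of the log2 value minus the control mean; the 6 groups of markers run along the axis with their number of genes. Sickle replicate 3 stands at 1.41 for recruited markers and at 0.31 for resident markers. The broad leukocyte genes are the only group in which all 3 sickle arrays lie above all 3 control arrays.

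Fc receptors and the adaptors that carry their signals were high together in sickle replicate 3 and not in the other sickle arrays. Tyrobp encodes DAP12, the adaptor of TREM2, and had 6.71, 6.38 and 8.16 in sickle, against 6.50, 6.74 and 6.68 in control. Fcer1g, the gamma chain shared by activating Fc receptors, had 8.17, 7.91 and 9.45 in sickle, against 8.05, 8.23 and 8.27 in control. For both adaptors sickle replicate 2 was the lowest and sickle replicate 3 the highest of the 6 arrays. Fcgr1, the high-affinity IgG receptor, had 5.37, 5.504 and 7.06 in sickle, against 5.49, 5.82 and 5.74 in control. Fcgr3, a low-affinity activating IgG receptor, had 6.42, 6.61 and 7.98 in sickle, against 6.46, 6.75 and 6.53 in control. All 4 had a positive difference over 6 arrays (0.30 to 0.45) and a negative one without sickle replicate 3 (-0.24 to -0.07). In limma 0 of the 4 passed over 6 arrays, against 0.181% of all genes, and 0 without sickle replicate 3, against 0.0976%. At an unadjusted p under 0.05 it was also 0 of 4 both ways. Of all genes, 4.3% were higher over 6 arrays and 939 of 21506 lower without sickle replicate 3. Among 4 genes a count of 0 says little.

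Of the phagocytic and pattern recognition receptors, 3 had small positive differences. Mertk, a receptor for dying cells that heart macrophages use, had a difference of 0.25 ± 0.17, and its relative Axl, also made by fibroblasts, had 0.14 ± 0.18. Msr1, scavenger receptor A, varied within the sickle group, with 5.53, 6.61 and 6.61 against 6.14, 5.73 and 6.12 in control (difference 0.25 ± 0.29). Cd14, the co-receptor for bacterial lipopolysaccharide, had 5.45, 6.23 and 6.94 in sickle, against 6.34, 6.44 and 6.64 in control. For Cd14, sickle replicates 1 and 2 lay below every control array and sickle replicate 3 above them, and the difference was -0.27 ± 0.33 with all arrays and -0.63 ± 0.22 without sickle replicate 3 (limma adjusted p = 0.477).

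**Figure D4:**
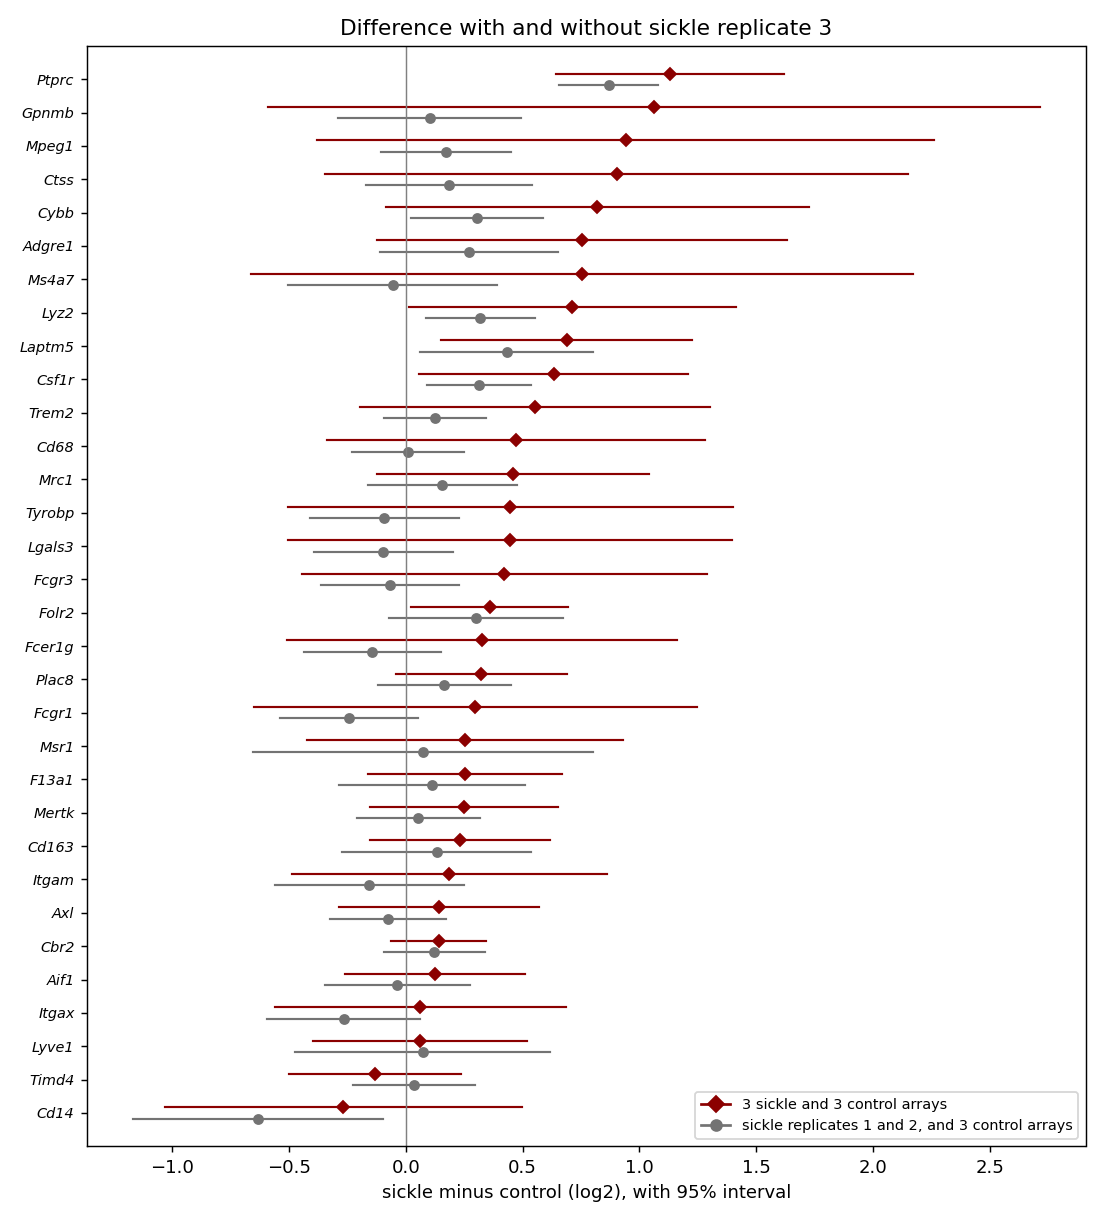
Sickle minus control difference (log2) with its 95% interval for each of the 32 genes, from all 6 arrays and without sickle replicate 3. Leaving that array out draws Gpnmb, Mpeg1, Ctss and Ms4a7 to near 0 and narrows their intervals, whereas Ptprc keeps a difference of 0.87.

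Further genes of macrophage biology were read from 8 lists. Of 84 measured genes, 0 passed over all genes in either direction (limma), against 0.181% of all genes. At an unadjusted p under 0.05, 12 were higher and 2 lower in sickle, against 4.3% and 4.38% of all genes. Without sickle replicate 3, the median of the 84 genes was 0.04 in place of 0.22, and 53 in place of 69 were above control. Of the other resident macrophage genes, 11 of 12 were higher in sickle, with a median of 0.39, which became 9 of 12 and 0.04 without sickle replicate 3. Vsig4, a complement receptor of tissue macrophages, had 6.56, 6.30 and 7.08 in sickle, against 5.77, 6.06 and 5.92 in control, without overlap (0.73 ± 0.20, adjusted p = 0.408). Stab1, a scavenger receptor, had a difference of 0.58 ± 0.18 with all arrays and 0.36 ± 0.11 without sickle replicate 3. The other monocyte and recruited genes had a median of 0.08 over 10 genes, and -0.02 without sickle replicate 3. Among them Ccr2, the receptor that brings monocytes out of the blood stream, had 5.73, 5.53 and 7.11 in sickle, against 5.30, 5.37 and 5.75 in control, and Ifitm6 differed by 0.36 ± 0.16.

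Growth factors and attractants had a median of 0.12 over 11 genes, 9 of them above control, and of 0.02 with 7 above control without sickle replicate 3. Csf2rb, the shared beta chain of the GM-CSF receptor, had 5.41, 5.47 and 6.001 in sickle, against 4.86, 4.95 and 5.01 in control (0.69 ± 0.16, adjusted p = 0.339). Ccl2, the ligand of CCR2, was lower in sickle by point estimate, with 6.13, 6.52 and 6.18 in sickle against 7.12, 6.51 and 6.81 in control (-0.53 ± 0.18, adjusted p = 0.492). Of 10 macrophage transcription factors, 8 were higher with a median of 0.38, which became 5 of 10 and 0.09 without sickle replicate 3. The smallest p-values among them were those of Irf8 (0.45 ± 0.16) and Maf (0.49 ± 0.20), neither past the test. Spi1, which encodes PU.1, had 6.45, 6.54 and 7.09 in sickle, against 6.16, 6.34 and 6.34 in control (0.41 ± 0.17, adjusted p = 0.566; added here for its link to the GAGGAAG motif).

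Partners of the adaptors and their kinases had a median of 0.32 over 14 genes, 12 of them above control, and of 0.11 with 9 above control without sickle replicate 3. Fcgr4, an activating IgG receptor, had 4.62, 4.92 and 5.93 in sickle against 4.25, 4.35 and 4.33 in control (0.85 ± 0.30, adjusted p = 0.522). Fgr, a kinase of the Src family, differed by 0.29 ± 0.14. The 4 measured partners of Cybb in the phagocyte oxidase were all higher, by 0.18 to 0.37 (median 0.30, and 0.15 without sickle replicate 3), with Rac2 at 0.36 ± 0.12 and Ncf4 at 0.18 ± 0.08. All 12 lysosomal genes were higher with a median of 0.17, Hexa at 0.36 ± 0.16 and Npc2 at 0.30 ± 0.19. For all 12 the highest array was sickle replicate 3, which was so for 23.9% of all genes. Without that array, 7 of the 12 were higher and the median was 0.03.

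Genes of red-cell clearance and iron recycling were split, 6 of 11 higher, with a median of 0.14, and 7 of 11 with a median of 0.03 without sickle replicate 3. Slc48a1, which moves haem out of the phagolysosome, had 10.26, 10.21 and 10.35 in sickle, against 9.99, 9.98 and 9.76 in control (0.37 ± 0.10, adjusted p = 0.424; 0.33 ± 0.11 without sickle replicate 3). Vcam1, an adhesion molecule of iron-recycling macrophages and of activated endothelium, differed by 0.47 ± 0.13 (adjusted p = 0.432). For both genes the groups did not overlap. Spic, the transcription factor of red-pulp macrophages, was dim in all arrays, with 4.65, 4.53 and 4.67 in sickle against 4.74, 4.83 and 4.85 in control (-0.19 ± 0.09; added here as that cell type's defining marker).

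Markers of other cells also set sickle replicate 3 apart. The 9 fibroblast markers had a median of 0.03, 0.13 and 1.52 relative to the control mean in sickle replicates 1, 2 and 3, against -0.06 to 0.08 in control. In sickle replicate 3, 5 of the 9 were more than 2-fold above the group mates, against 1.58% of all genes. Their mean level was 9.22 to 10.84 in sickle and 9.03 to 9.20 in control. Cardiomyocyte markers had medians of 0.05, -0.00 and -0.13 in the sickle arrays. Of the 8, 7 were lowest in sickle replicate 3, against 6087 of all 21506 genes. Neutrophil markers did not follow, with medians of 0.02, 0.02 and 0.04 in sickle and -0.12 to 0.10 in control, and S100a8, their most abundant transcript, was dim at the 10.8 percentile. Red-cell markers were high in all 3 sickle arrays (medians 1.55, 2.12 and 1.80), and 7 of 8 passed the test, where 0.167% of all genes passed upward. Without sickle replicate 3, 3 of the 8 passed, where 0.0976% of all genes passed in either direction. The median difference of the red-cell markers was then 1.81, against 1.83 with all arrays. Dendritic cell markers lay between 0.03 and 0.18 in sickle arrays and between -0.10 and 0.06 in control arrays. The part of fibroblasts and of tissue sampling in the macrophage values of sickle replicate 3 was not tested.

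**Figure D5:**
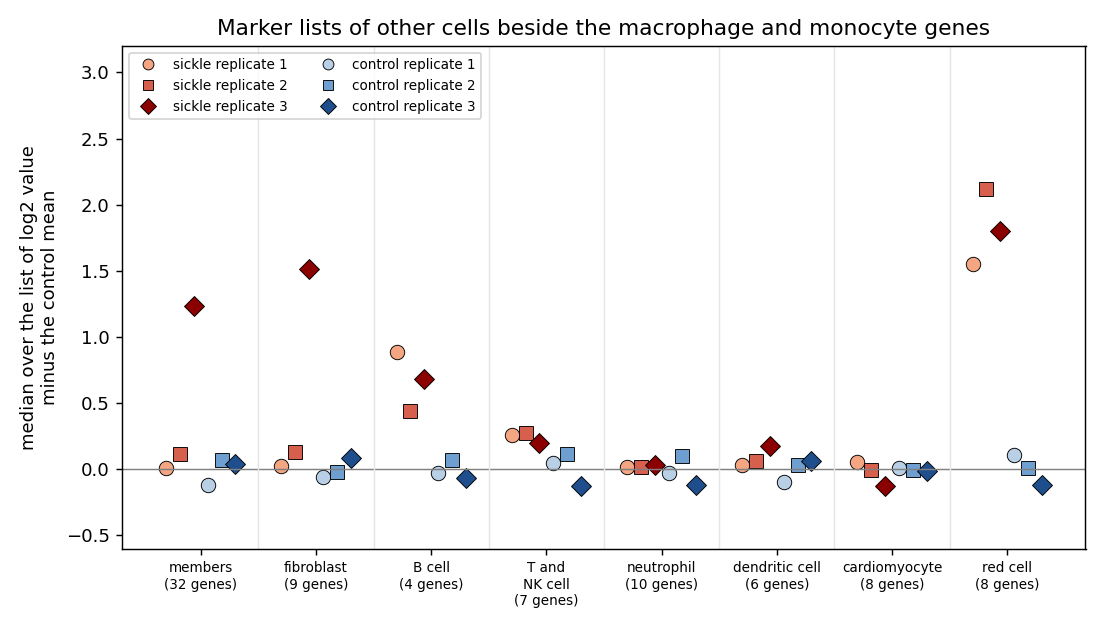
Median over each marker list, in 1 array, of the log2 value minus the control mean, for the 32 macrophage and monocyte genes (labelled members) and for 7 lists of other cells. Fibroblast markers and the members are high in sickle replicate 3 alone, B-cell and red-cell markers in all 3 sickle arrays, and neutrophil markers lie near 0 throughout.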

How the data were processed

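The authors deposited log2 values made with RMA, per the submitters' processing notes, from 1 array per mouse; the sources used here give no RMA version or settings, and the range of the values shows the log2 scale. RMA corrects background, equalises the arrays' distributions and summarises probes. Of 25293 rows, 22030 had 1 gene symbol, 685 several and 2578 none. Where a gene had several rows the brightest stood for it, leaving 21506 genes; each of the 32 genes had a gene number found in RefSeq's GRCm38.p6 table. Limma 3.58.1 in R 4.3.3 (lmFit, eBayes, group as the only term, 4 residual and 3.61 prior degrees of freedom) was run two-sided, and p-values were adjusted by Benjamini-Hochberg over all 21506 genes, with a threshold of 0.05. Each difference is sickle minus control with moderated standard errors. Spread between mice and technical spread are not separated, and arrays give no read depth, so their number limits the precision. The fit and the motif search were tested on simulated data. The genes and lists were chosen with earlier results of these data known. All 32 genes are named; from each further list those past the test, or the 2 with the smallest p, are named. Alternatives changed the variance model, filter, scaling, weights, rows and arrays. Figures used matplotlib 3.10.9.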

Additional observations from a re-analysis of the deposited data

How the results depend on the processing

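The count of the 32 genes past the test was 0 in every alternative run except without sickle replicate 3, so leaving out 1 array gave 0 to 1, the 1 being Ptprc. Few of all 21506 genes passed in some alternatives: 13, 5 and 4 without control replicates 1, 2 and 3, and 0 without variance shared between genes. A count of 0 there says nothing particular about the 32 genes. Without each array in turn, the count without overlap ranged from 8 to 14 (14 without sickle replicate 1 or control replicate 2), against 8 with all arrays and 6 after median centring. Over all genes, 7.61% were higher and 8.36% lower without overlap in 6 arrays, and 13.5% and 13.4% without sickle replicate 3. That share is not given here for the other alternatives. The median difference of the 32 genes ranged from 0.09 without sickle replicate 3 to 0.62 without sickle replicate 1, and was 0.14 with array weights. Same-numbered arrays are not known to be paired: deviations of the pairs correlated at 0.11, -0.05 and 0.05, and with the replicate block 0 of the 32 genes and 12 of all genes passed, against 39 of all genes without it. With array weights the sign turned for Itgax (-0.11), Fcgr1 (-0.043), Axl (-0.0018) and Itgam (-0.027). Leaving out 1 array, or replicate 3 of both groups, turned the sign of 13 differences, whose lowest and highest values were -0.036 and 0.24 for Aif1, -0.075 and 0.29 for Axl, -0.63 and 0.11 for Cd14, -0.14 and 0.63 for Fcer1g, -0.24 and 0.60 for Fcgr1, -0.093 and 0.71 for Fcgr3, -0.16 and 0.39 for Itgam, -0.27 and 0.32 for Itgax, -0.10 and 0.75 for Lgals3, -0.17 and 0.20 for Lyve1, -0.057 and 1.26 for Ms4a7, -0.25 and 0.078 for Timd4, and -0.092 and 0.80 for Tyrobp. Leaving out sickle replicate 3 and control replicate 3, an alternative chosen after seeing the data, gave 0 of the 32 genes past the test. Of all 21506 genes, 0 passed there too, so that count says nothing particular about the 32. The same alternative gave a median of 0.09 and 11 members without overlap. With fewer arrays more of all genes fall without overlap, and their share was not computed there. That count is therefore not read as a result about the 32 genes. The cause of these changes was not tested, and 3 arrays a group limit the precision.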

Other observations

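Outside the lists' summaries, 2 genes chosen after their values were seen stood out. Atp6v0d2, a subunit of the proton pump found in osteoclasts and lipid-laden macrophages, had 3.28, 3.13 and 5.93 in sickle replicates 1, 2 and 3, against 3.13, 3.35 and 2.92 in control. Cd209a, a lectin of dendritic cells derived from monocytes, had 4.71, 5.06 and 6.61 in sickle, against 5.21, 5.32 and 6.53 in control, so it was high in replicate 3 of both groups and overlapped between them.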
